A study of Mus musculus with 4 samples.

Results

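Mitochondrial ribosomal protein genes were compared between 2 arrays of mouse mesangial cells treated with TGF-beta1 (transforming growth factor beta) and 2 arrays of mesangial cells kept in low glucose. A gene was included when a probe set of the array was annotated with a single gene symbol beginning Mrpl or Mrps and a number. This rule found 156 probe sets of 76 genes, of 18193 genes with such an annotation on the array: 47 Mrpl genes, named for the large ribosomal subunit, and 29 Mrps genes, named for the small one. Each gene was represented by its probe set of highest mean, and all 76 passed the filter on dim probe sets. The rule left out 4 probe sets shared with another gene, among them those of Mrpl53 and Mrpl30. Both groups were total RNA of mesangial cells, which support the capillaries of the kidney glomerulus and can contract, and TGF-beta1 is a cytokine that drives matrix accumulation there. The labels name no strain, dose, time or glucose concentration, and they do not say in how much glucose the TGF-beta1 cells were kept, so an effect of TGF-beta1 and one of glucose cannot be told apart. Whether the 2 arrays of a group stem from different cultures is not stated. P-values therefore describe at most how far these arrays spread, possibly for technical reasons. In the fit with a block, described below, that spread is one shared by genes of like brightness.

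The mitochondrial ribosome sits in the matrix of the mitochondrion and translates the few mRNAs of the mitochondrial genome, all of which encode subunits of the respiratory chain and of the ATP synthase. Its RNAs are made in the mitochondrion, while its proteins are encoded in the nucleus, translated in the cytosol and imported. Many of these proteins have bacterial counterparts and others were added during mitochondrial evolution. The kidney is rich in mitochondria, mostly in its tubules.

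The array medians of the deposited intensities were 80.32 and 99.62 for TGF-beta1 replicates 1 and 2, against 96.75 and 78.28 for low glucose replicates 1 and 2. Values below are log2(intensity + 46.88) after quantile normalisation, and each difference is TGF-beta1 minus low glucose on that scale, which understates the change of dim genes. Each gene was tested with limma among 13565 genes. The arrays formed 2 pairs, with an array of TGF-beta1 and one of low glucose in each: TGF-beta1 replicate 2 with low glucose replicate 1 (array pair 1), and TGF-beta1 replicate 1 with low glucose replicate 2 (array pair 2). Across genes, which are not independent replicates, arrays correlated at r = 0.988 and 0.99 within these pairs, against 0.955 within either group. Without the pair in the fit, limma called 0 of the 13565 genes (smallest adjusted p = 1), and 270 had an unadjusted p under 0.05. "Fell" and "rose" below mean an adjusted p under 0.05 when limma was run with array pair as a block. Such a model leaves 1 residual degree of freedom, and its prior was infinite. Its standard errors thus follow a trend with brightness over all genes, and a gene's own spread has no weight in them. Over the members they ran only from 0.0663 to 0.0827. Given the finite prior estimated without the block, of 2.796 degrees of freedom, the blocked model called 0 genes (2239 at an unadjusted p under 0.05). Of the mesangial and pericyte markers, 5 of 9 were tested, and Pdgfrb was dim, at a mean log2 value of 7.17. Of 5 tubular epithelial markers 4 were tested, and Cdh16 was bright, at 10.83. Of podocyte, endothelial and leukocyte markers 3, 1 and 4 of 5 each were tested. The brightest tested leukocyte marker was at 10.36, against 8.52 for podocyte, 7.06 for endothelial and 7.54 for mesangial and pericyte markers. No marker was listed at 0. Fewer cells of a type and less RNA per cell cannot be told apart in such samples.

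Mitochondrial ribosomal protein genes lay slightly lower in TGF-beta1 by their counts: 54 of 76 had a negative difference (71.1%, against 50% of all tested genes), with a median of -0.078, against -0.0001 for all tested genes. The median was -0.12 within array pair 1 and -0.036 within array pair 2. With the block, 8 members fell and 0 rose in limma. At an unadjusted p under 0.05 there were 13 lower members (17.1%, against 16.4% of all tested genes) and 2 higher ones (2.63%, against 13.3%), together 19.7%, against 29.7%. The 8 that fell were 10.5% of the members, close to the 10.6% of all tested genes that fell, while 7.88% of all tested genes rose. In the fit without the block 0 members were called by limma, where 0% of all genes were, and 0 had an unadjusted p under 0.05. No difference between the members and other genes was tested. The differences were small: the largest was -0.31, a 0.805-fold level, and 43 members differed by less than 0.1. The 6182 other genes within the members' range of brightness had a median of -0.016. Of these, 54.4% had a negative difference, 11.2% fell and 9.72% rose. Of 4 tubular epithelial markers, Cdh16 (-0.31) and Lrp2 (-0.29) fell, while Pax8 at -0.14 and Epcam at 0.065 did not pass. The intensities of the tubular list summed to 2869 and 2933 on the TGF-beta1 arrays, against 3667 and 3199 on the low glucose arrays. Leukocyte markers summed to 1243 and 1575 in TGF-beta1, against 1919 and 1558 in low glucose, and 1 of 4 (Csf1r) fell. Of 3 podocyte markers 1 fell and 1 rose, of 5 mesangial markers 1 rose, and the endothelial marker did not pass. The part of these markers in the members' differences was not tested. The number of members with a negative difference was 23 with TGF-beta1 replicate 2 left out, 35 with low glucose replicate 2 left out, 66 with TGF-beta1 replicate 1 left out and 65 with low glucose replicate 1 left out. It was also 65 with arrays centred on their medians. The members' median turned positive without TGF-beta1 replicate 2 (0.058) or low glucose replicate 2 (0.014). It was -0.20 with TGF-beta1 replicate 1 left out and -0.16 with low glucose replicate 1 left out. Leaving out 1 array unbalances the array pairs, so part of the gap between pairs enters these values.

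**Figure D1:**
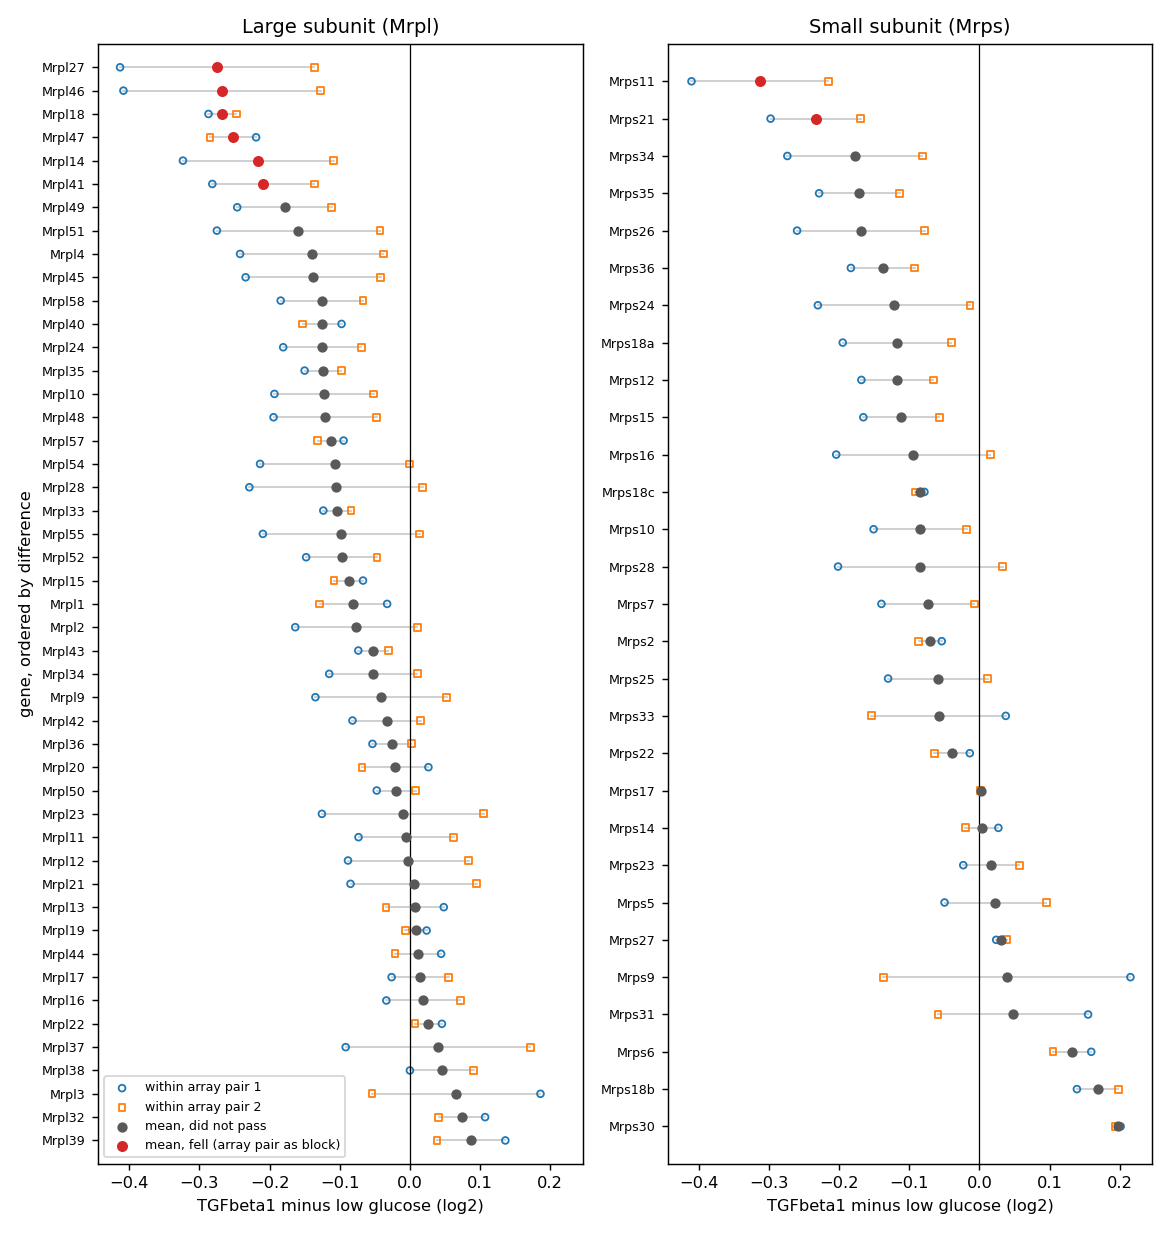
The difference of each of the 76 genes (log2, TGF-beta1 minus low glucose) is drawn as a filled point, with the differences within array pair 1 (blue circles) and array pair 2 (orange squares) beside it. The 6 large-subunit and 2 small-subunit genes that fell are red and lie at the top of each panel, and the highest points are Mrpl39 at 0.088 and Mrps30 at 0.20.

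Of the 47 large-subunit genes, 6 fell (12.8%, against 10.6% of all tested genes), 0 rose (against 7.88%) and 41 did not pass. Mrpl27, whose bacterial counterpart lies close to the peptidyl transferase centre, was at 11.24 and 10.93 on TGF-beta1 replicates 1 and 2, against 11.34 and 11.37 on low glucose replicates 1 and 2. Both TGF-beta1 arrays were below both low glucose arrays, and the difference was -0.27 ± 0.068 (standard error of the blocked fit, n = 2 arrays per group, limma adjusted p = 0.000833), or a 0.827-fold level. Over all tested genes, 11.1% had both TGF-beta1 arrays below both low glucose arrays. Mrpl14, a protein of the interface between the subunits, was at 10.43 and 10.46 in TGF-beta1, against 10.79 and 10.54 in low glucose, again without overlap. It fell by 0.22 ± 0.078.

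The other 4 large-subunit genes that fell had groups that overlapped, and in each the TGF-beta1 array was lower within both array pairs. Mrpl46, a protein of the central protuberance that was added in mitochondria, was at 9.77 and 9.18 in TGF-beta1, against 9.59 and 9.89 in low glucose (-0.27 ± 0.083). Mrpl18, also of the central protuberance, was at 10.35 and 9.72 in TGF-beta1, against 10.01 and 10.60 in low glucose (-0.27 ± 0.081). In both genes the array of pair 1 was the lower one of each group. Mrpl47, a counterpart of bacterial L29 beside the exit tunnel of the nascent chain, was at 8.85 and 8.51 in TGF-beta1, against 8.73 and 9.13 in low glucose (-0.25 ± 0.076). Mrpl41, a mitochondria-specific protein that has also been linked to p53, was at 10.43 and 10.02 in TGF-beta1, against 10.30 and 10.57 in low glucose (-0.21 ± 0.080). Its adjusted p with limma was 0.049, and with the scaling of the arrays as deposited it no longer passed (adjusted p = 0.0651, difference -0.20).

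Of the 29 small-subunit genes, 2 fell (6.9%, against 10.6% of all tested genes), 0 rose (against 7.88%) and 27 did not pass. Mrps11, a protein with a counterpart in the platform of the bacterial small subunit, was at 9.79 and 9.26 in TGF-beta1, against 9.67 and 10.004 in low glucose. The groups overlapped, and the difference was -0.31 ± 0.083, with -0.41 and -0.22 within array pairs 1 and 2 (limma adjusted p = 0.00182 with the block). Mrps21, the counterpart of bacterial S21, was at 11.15 and 11.04 in TGF-beta1, against 11.34 and 11.32 in low glucose. Here the groups did not overlap, and the difference was -0.23 ± 0.068.

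Values of most of these genes moved when 1 array was left out. These values come without the block, so part of the gap between array pairs enters them. Without TGF-beta1 replicate 1, Mrps11 was at -0.58, Mrpl18 at -0.58, Mrpl46 at -0.56, Mrpl27 at -0.43, Mrpl47 at -0.42 and Mrpl41 at -0.41. Without TGF-beta1 replicate 2, Mrpl27 was at -0.12, Mrpl47 at -0.086, Mrps11 at -0.049, Mrpl41 at -0.0038, Mrpl46 at 0.027 and Mrpl18 at 0.048. Of these, Mrpl46 and Mrpl18 thus turned sign. Without low glucose replicate 1, Mrpl18 was at -0.56, Mrps11 at -0.48, Mrpl47 at -0.45, Mrpl46 at -0.42, Mrpl41 at -0.34 and Mrpl14 at -0.094. Without low glucose replicate 2, Mrpl14 was at -0.34, Mrps11 at -0.15, Mrpl46 at -0.11, Mrpl41 at -0.077, Mrpl47 at -0.053 and Mrpl18 at 0.028. Among the 8 genes, Mrps21 alone moved by less than 1.5 times under each of these, with values between -0.29 and -0.18. Pair 1 minus pair 2 was -0.045 in Mrps21 and -0.61 in Mrpl18. The differences of Mrpl18 within array pairs 1 and 2 were close, at -0.29 and -0.25.

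**Figure D2:**
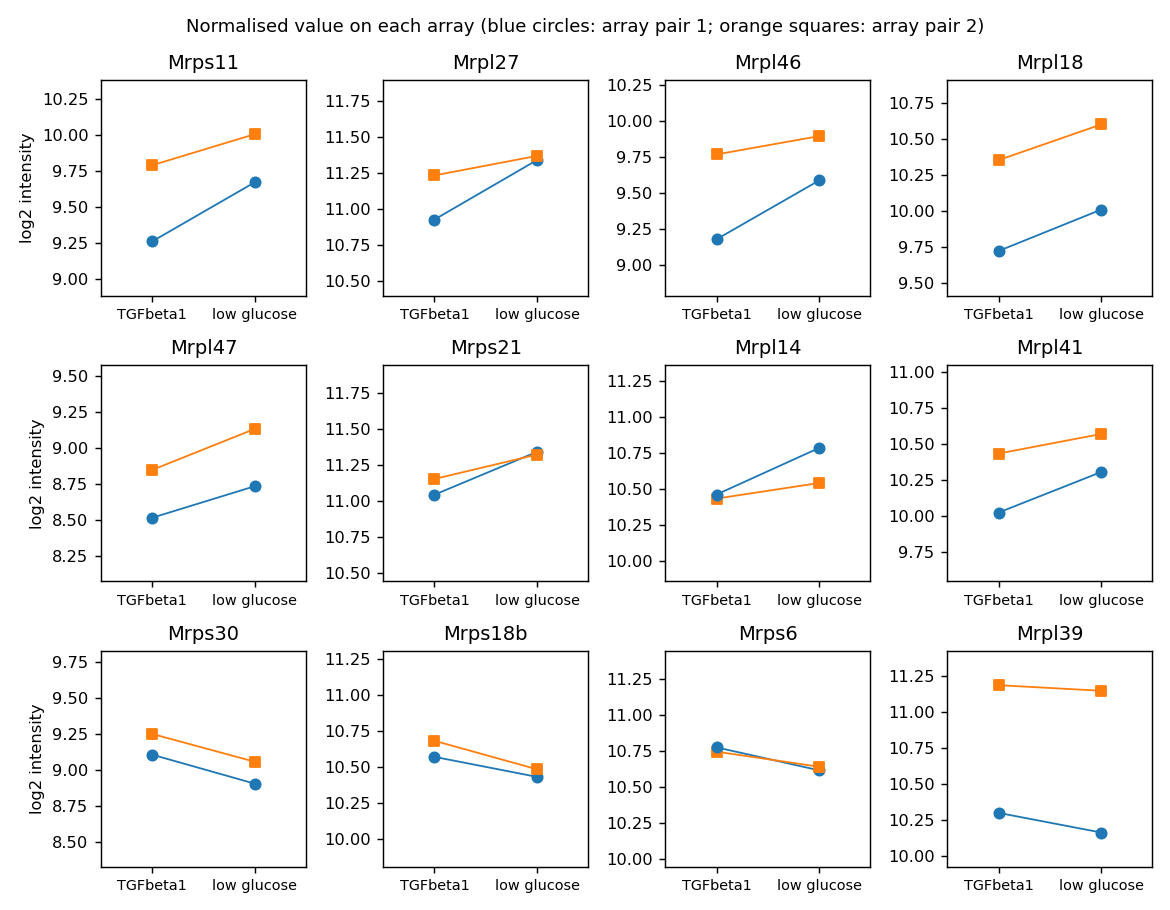
Normalised log2 values on each array are shown for the 8 genes that fell and for Mrps30, Mrps18b, Mrps6 and Mrpl39, with TGF-beta1 left of low glucose and lines joining the arrays of a pair (blue circles pair 1, orange squares pair 2). Both lines slope the same way in each panel, and in Mrpl39 the gap between the lines far exceeds their slope.

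At the other end, the 3 members with the largest positive differences were all Mrps genes, and none passed. Mrps30 was at 9.25 and 9.11 in TGF-beta1, against 8.91 and 9.06 in low glucose (0.20 ± 0.079, limma adjusted p = 0.0641 with the block). Mrps18b was at 10.69 and 10.57 in TGF-beta1, against 10.43 and 10.49 in low glucose (0.17 ± 0.078). Mrps6, the counterpart of bacterial S6, was at 10.75 and 10.77 in TGF-beta1, against 10.62 and 10.64 in low glucose (0.13 ± 0.076). In each of these 3 genes both TGF-beta1 arrays were above both low glucose arrays, as in 9.81% of all tested genes. The other members with this pattern were Mrps27 and Mrpl38, at 0.031 ± 0.073 (-0.0004 with arrays centred on their medians) and 0.046 ± 0.082. Mrps30 carries a small-subunit name, but ribosome structures place it in the large subunit. It passed in the blocked fit without an intensity trend (adjusted p = 0.0392). With TGF-beta1 replicate 1 left out, Mrps30 was at 0.13 and Mrpl38 at 0.0074, and with TGF-beta1 replicate 2 left out Mrpl38 was at 0.084. Mrps30 was at 0.12 with low glucose replicate 1 left out.

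Further small-subunit genes of the negative end did not pass. Mrps34, a mitochondria-specific protein, was at 10.65 and 10.41 in TGF-beta1, against 10.69 and 10.73 in low glucose (-0.18 ± 0.077). Mrps26 was at 10.13 and 10.11 in TGF-beta1, against 10.37 and 10.21 in low glucose (-0.17 ± 0.081). In both, the groups did not overlap. Mrps35 differed by -0.17 ± 0.078, and Mrps36, now known as a subunit of the 2-oxoglutarate dehydrogenase complex, by -0.14 ± 0.083. Mrps9 was at 0.039 ± 0.081 and Mrps31 at 0.048 ± 0.076, with opposite signs within the array pairs. The probe sets of highest mean in the small subunit were those of Mrps21, Mrps14 (0.0033 ± 0.070) and Mrps16 (-0.094 ± 0.076). Single arrays moved several of these values. The ranges over leaving out each array were -0.30 to -0.060 for Mrps34 and -0.32 to -0.026 for Mrps35, both set by the TGF-beta1 arrays. They were -0.25 to -0.091 for Mrps26 and -0.21 to -0.070 for Mrps36, both set by the low glucose arrays, and -0.16 to -0.030 for Mrps16, set by the TGF-beta1 arrays.

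Among the genes with Mrpl symbols the most positive differences were smaller, and none passed. Mrpl39 differed by 0.088 ± 0.076, Mrpl32, whose maturation by the m-AAA protease precedes its assembly, by 0.074 ± 0.083, and Mrpl3 by 0.066 ± 0.083. Mrpl37 was at 0.040 ± 0.081 and Mrpl22, which lines the exit tunnel, at 0.027 ± 0.078. Mrpl51 and Mrpl20, with Mrpl27 the probe sets of highest mean, differed by -0.16 ± 0.066 and -0.021 ± 0.067. Mrpl51 passed with arrays centred on their medians (adjusted p = 0.0354).

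The medians of the subunits lay close together, and their difference was not tested. The median difference was -0.080 over 47 large-subunit genes and -0.074 over 29 small-subunit genes, with -0.11 and -0.13 within array pair 1 and -0.034 and -0.040 within array pair 2. Large minus small was -0.0066, and also -0.0066 with Mrps18a and Mrps30 counted in the large subunit. It was 0.0023 with the deposited scaling or with arrays centred on their medians. Large minus small was -0.088 with low glucose replicate 2 left out, 0.0049 with low glucose replicate 1 left out and 0.035 with TGF-beta1 replicate 1 left out. Negative differences made up 35 of 47 large-subunit genes (74.5%) and 19 of 29 small-subunit genes (65.5%). By symbol, the range was wider among the small-subunit genes, from -0.31 to 0.20, than among the large-subunit genes, from -0.27 to 0.088. The value of 0.20 is that of Mrps30. With Mrps30 counted in the large subunit, as in ribosome structures, the large subunit ran from -0.27 to 0.20 and the small one from -0.31 to 0.17. Genes whose proteins have a bacterial counterpart had a median of -0.076 (45 genes, 6 fell, 13.3%), and mitochondria-specific ones a median of -0.078 (30 genes, 2 fell, 6.67%). Of all tested genes 10.6% fell.

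Within the array pairs, 38 of the 76 members were below low glucose in both pairs (50%, against 34.4% of all tested genes), 9 were above in both (11.8%, against 33.9%) and 29 had opposite signs. Among other genes within the members' range of brightness, 38.9% were below in both pairs and 31.4% above in both. Both TGF-beta1 arrays were below both low glucose arrays in 12 members (15.8%, against 11.1% of all tested genes), and above them in 5 (6.58%, against 9.81%). The remaining 59 overlapped.

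**Figure D3:**
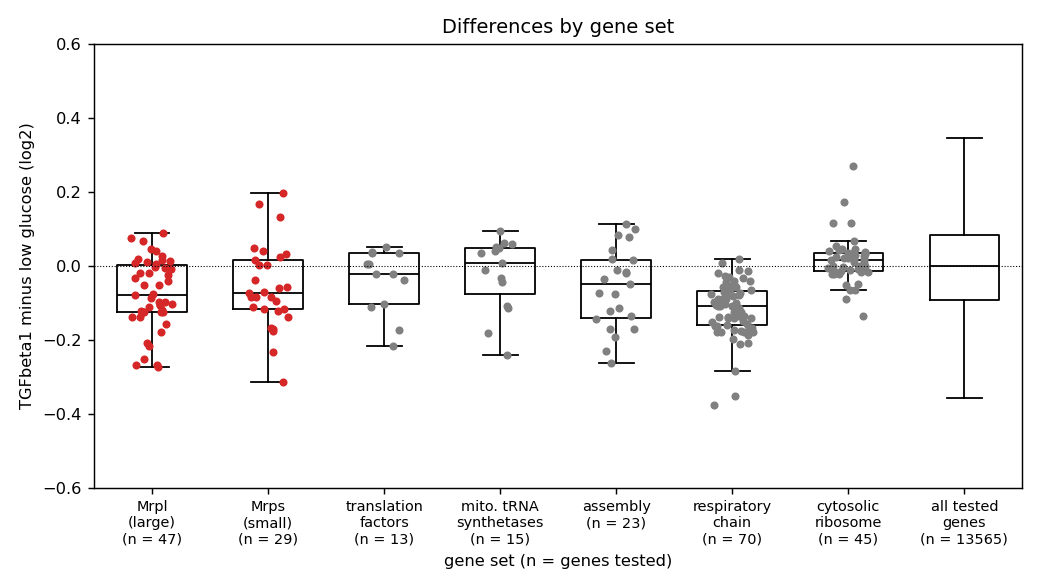
Differences (log2, TGF-beta1 minus low glucose) of single genes are shown as points, with a box for the quartiles, a line for the median and whiskers to the last value within 1.5 times the box, for each gene set and for all tested genes. Large- and small-subunit mitoribosomal genes have medians of -0.080 and -0.074, respiratory chain genes -0.11, cytosolic ribosomal genes 0.016 and all tested genes -0.0001.

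The gap between the array pairs exceeded the difference between the groups in most members. The median of pair 1 minus pair 2 was -0.21 over the members, against -0.017 over all tested genes, and 65 of 76 members were lower in pair 1 (85.5%, against 51.9%). The gap was larger than the TGF-beta1 difference in 58 members (76.3%, against 76.2% of all tested genes). It was widest in Mrpl39, at 11.19 and 10.30 in TGF-beta1, against 10.17 and 11.15 in low glucose. Mrpl40 went the other way, at 10.31 and 10.93 in TGF-beta1, against 11.03 and 10.46 in low glucose. The 3' to 5' ratio of the Actb control, a measure of RNA integrity and labelling, was 1.32 and 1.18 on TGF-beta1 replicates 1 and 2, against 1.18 and 1.51 on low glucose replicates 1 and 2. It was thus lower on both arrays of pair 1, and its part in the gap was not tested. The Gapdh ratio lay between 0.948 and 1.0. Median member intensities as deposited were 1139 and 947.8 in TGF-beta1, against 1060 and 1145 in low glucose.

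**Figure D4:**
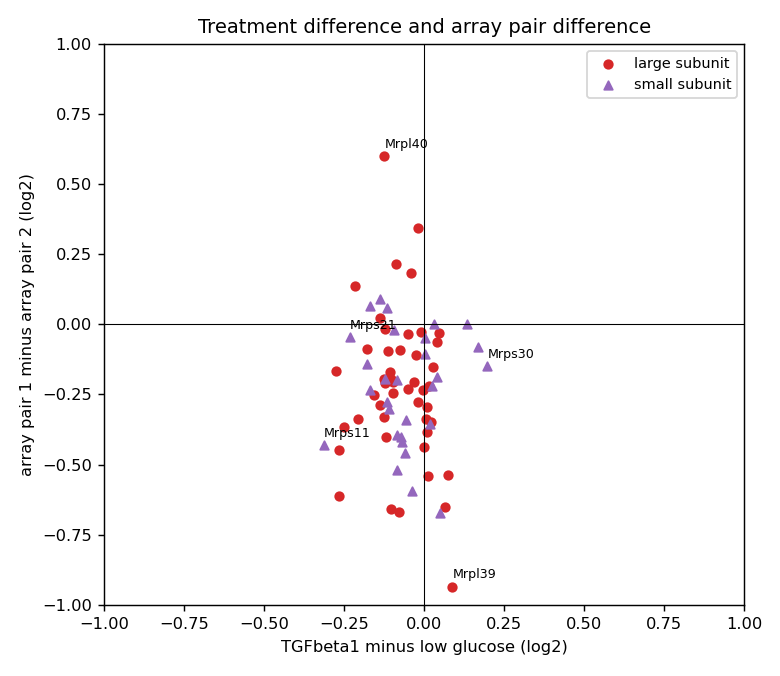
Each point is a mitoribosomal gene, with its TGF-beta1 minus low glucose difference (log2) on the horizontal axis and its array pair 1 minus pair 2 difference (log2) on the vertical axis, drawn to the same scale. Points spread more widely up and down than sideways and 65 of 76 lie below the horizontal line, with Mrpl39 the lowest and Mrpl40 the highest.

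Of the 76 genes, 36 had further probe sets above the filter, 65 in all, whose median difference was -0.023. In 43 of these 65 the sign was that of the gene's tested probe set. The 4 further probe sets of genes that fell were all negative: -0.21 for Mrpl27, -0.22 for Mrpl41, -0.11 for Mrps21 and -0.020 for Mrps11, the last near the filter at a mean log2 value of 6.87. The other probe set of Mrps6 was at 0.17. Those of Mrpl51 opposed its tested one, at 0.17 and 0.071.

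Among mitoribosomal proteins with other kinds of symbol, 4 were tested and 0 passed. Gadd45gip1 differed by -0.13 ± 0.082, Ptcd3 by -0.062 ± 0.077, Dap3, a GTP-binding protein of the small subunit, by -0.018 ± 0.073 and Chchd1 by -0.0077 ± 0.073. Gadd45gip1 was at -0.23 with TGF-beta1 replicate 1 left out and at -0.032 with TGF-beta1 replicate 2 left out. The median of the translation factors of mitochondria was -0.022, and 2 of 13 fell (15.4%, against 10.6% of all tested genes). Mtrf1l, a release factor, fell, at -0.22 ± 0.077, and Tsfm, an elongation factor, was at 0.051 ± 0.079 without passing. Of the mitochondrial aminoacyl-tRNA synthetases 2 of 15 fell (13.3%), Iars2 (-0.24 ± 0.081) among them, and 0 rose (against 7.88% of all tested genes). Their median was 0.0074 and the highest was Rars2 at 0.095. Of 23 genes of mitoribosome assembly and rRNA modification 3 fell (13%) and 0 rose (median -0.048). Malsu1, an assembly factor that binds the Mrpl14 protein, was the lowest at -0.26 ± 0.083 and Fastkd2 the highest at 0.11. Among 11 genes of mitochondrial transcription and mRNA stability, 1 fell (9.09%) and 0 rose. The gene that fell was Slirp, an RNA-binding partner of Lrpprc, by 0.24 ± 0.081, and Mtpap was highest at 0.056. Without TGF-beta1 replicate 1, Slirp was at 0.0075, Malsu1 at -0.54, Iars2 at -0.44 and Mtrf1l at -0.37. Without TGF-beta1 replicate 2, Slirp was at -0.49, Mtrf1l at -0.067, Iars2 at -0.038 and Malsu1 at 0.018. Without low glucose replicate 1, Mtrf1l was at -0.49, Malsu1 at -0.44 and Slirp at -0.040. Without low glucose replicate 2, Slirp was at -0.45, Iars2 at -0.13, Malsu1 at -0.084 and Mtrf1l at 0.052. Mtrf1l no longer passed with the deposited scaling (adjusted p = 0.0635).

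Regulators of nuclear genes for mitochondria went in both directions: of 10, 3 rose and 2 fell (30% and 20%, against 7.88% and 10.6% of all tested genes). Ppargc1a, the coactivator PGC-1alpha that drives mitochondrial biogenesis, was at 7.36 and 7.13 in TGF-beta1, against 7.66 and 7.88 in low glucose (-0.53 ± 0.065). Myc, a transcription factor that raises ribosome production, was at 9.72 and 9.499 in TGF-beta1, against 8.72 and 8.99 in low glucose (0.75 ± 0.081). In both the groups did not overlap. The respiratory chain and ATP synthase subunits of the nucleus had a lower median than the mitoribosomal genes, -0.11. Of these 70 genes 68 were negative, 13 fell (18.6%) and 0 rose. Ndufa6 was the lowest at -0.38 ± 0.079 and Uqcrq the highest at 0.018. Cytosolic ribosomal proteins had a median of 0.016, with 17 of 45 negative, 1 that rose (Rpl12 at 0.27 ± 0.068) and 0 that fell, Rpl22l1 being the lowest at -0.14. Rpl12 was at 0.079 with low glucose replicate 1 left out and at 0.46 with replicate 2 of that group left out. With a pseudocount of 16 its difference was 0.30, a shift of the kind that dim genes show. The median brightness of the cytosolic list was a mean log2 value of 12.69. These lists were set side by side with the members and the differences between lists were not tested.

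Mrps11 and Mrpl46, a small- and a large-subunit gene that both fell, start head to head. Their annotated starts lie 42 bases apart on opposite strands (RefSeq, GRCm38.p6). The 4 promoter stretches below show the shared start region of this pair, those of Mrpl27 and Mrps21, which fell without overlap between the groups, and that of Mrps30, the most positive member. Each runs 5′ to 3′ on the strand of the named gene from 150 bases before its start to 30 bases from the start on. Capitals mark letters of 3 motifs searched on both strands: GCGCA and GCGC with any base between them for NRF1, CCGGAAG for ETS factors such as GABPA, and ATGGCGG for YY1, factors known to bind many nuclear genes for mitochondrial proteins.
Mrps11 (chr7:78782981-78783160, plus strand): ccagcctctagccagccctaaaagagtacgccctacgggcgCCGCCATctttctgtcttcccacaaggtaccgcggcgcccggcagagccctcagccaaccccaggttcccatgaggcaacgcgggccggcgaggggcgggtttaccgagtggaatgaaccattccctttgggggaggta
Mrpl27 (chr11:94653641-94653820, plus strand): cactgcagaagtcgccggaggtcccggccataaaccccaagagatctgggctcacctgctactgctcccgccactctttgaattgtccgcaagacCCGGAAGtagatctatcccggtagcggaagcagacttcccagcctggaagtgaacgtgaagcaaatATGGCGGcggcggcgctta
Mrps21 (chr3:95871485-95871664, minus strand): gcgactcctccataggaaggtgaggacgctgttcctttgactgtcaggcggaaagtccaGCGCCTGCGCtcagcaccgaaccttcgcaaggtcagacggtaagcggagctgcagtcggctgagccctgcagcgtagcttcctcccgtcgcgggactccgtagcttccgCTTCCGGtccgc
Mrps30 (chr13:118387223-118387402, minus strand): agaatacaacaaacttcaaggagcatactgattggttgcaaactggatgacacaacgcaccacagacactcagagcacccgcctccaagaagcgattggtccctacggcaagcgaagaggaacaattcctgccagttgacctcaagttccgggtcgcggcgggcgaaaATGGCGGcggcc
In the Mrps11 stretch a YY1 match began 109 bases before the Mrps11 start. In that of Mrpl27 an ETS match began 55 bases before the start and a YY1 match 11 bases after it. Mrps21 had an NRF1 match 91 bases before its start and an ETS match 18 bases after it, and Mrps30 a YY1 match 18 bases after its start. A match describes these letters and shows no binding.

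Promoter windows of 250 bases before to 50 after the start were available for 67 of the 76 members. An ETS match was found in 25 of the 67 (37.3%, against 18% of tested genes and 9.93% of all genes with a window). NRF1 matches were found in 12 (17.9%, against 10.3% and 5.19%) and YY1 matches also in 12 (17.9%, against 8.55% and 4.69%). At least 1 of the 3 was in 40 members (59.7%, against 31.6% and 17.3%). The median difference was -0.094 in members with an ETS match and -0.065 in members without. For NRF1 these medians were -0.022 and -0.076, and for YY1 -0.030 and -0.080. Of the 8 genes that fell, Mrpl14, Mrpl18, Mrpl27, Mrps11 and Mrps21 held a match and Mrpl41, Mrpl46 and Mrpl47 held none of these letters in the window. The YY1 match printed for Mrps11 lies past the Mrpl46 start, beyond the 50 bases that the Mrpl46 window covers there.

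Head-to-head starts were common among the members. In 25 of the 67 (37.3%, against 18.5% of tested genes and 12.3% of all genes with a window) another gene started on the opposite strand at most 1000 bases upstream. The neighbours gave values for 22 genes outside the family, chosen here by position with earlier values known. Their median was -0.024, with 12 of 22 negative, 1 that fell and 0 that rose, against a median of -0.11 for the 22 mitoribosomal genes beside them. Over all tested genes 10.6% fell and 7.88% rose. Of the 8 members that fell, 7 had a head-to-head neighbour, and this share was not tested. Mrpl27 at -0.27 stood beside Eme1, a subunit of a DNA endonuclease, at -0.047, with 48 bases between the starts. Mrpl14 at -0.22 stood beside Tmem63b at 0.034, with 131 bases between the starts. Mrpl18 at -0.27 stood beside Tcp1, a cytosolic chaperonin subunit, at 0.13. Mrpl47 at -0.25 stood beside Ndufb5, a subunit of respiratory complex I, at -0.16. Mrpl41 at -0.21 stood beside Pnpla7, a lysophospholipase, at -0.26, which was the neighbour that fell, with 935 bases between the starts. Mrps11 and Mrpl46 differed by -0.41 and -0.41 within array pair 1 and by -0.22 and -0.13 within array pair 2.

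**Figure D5:**
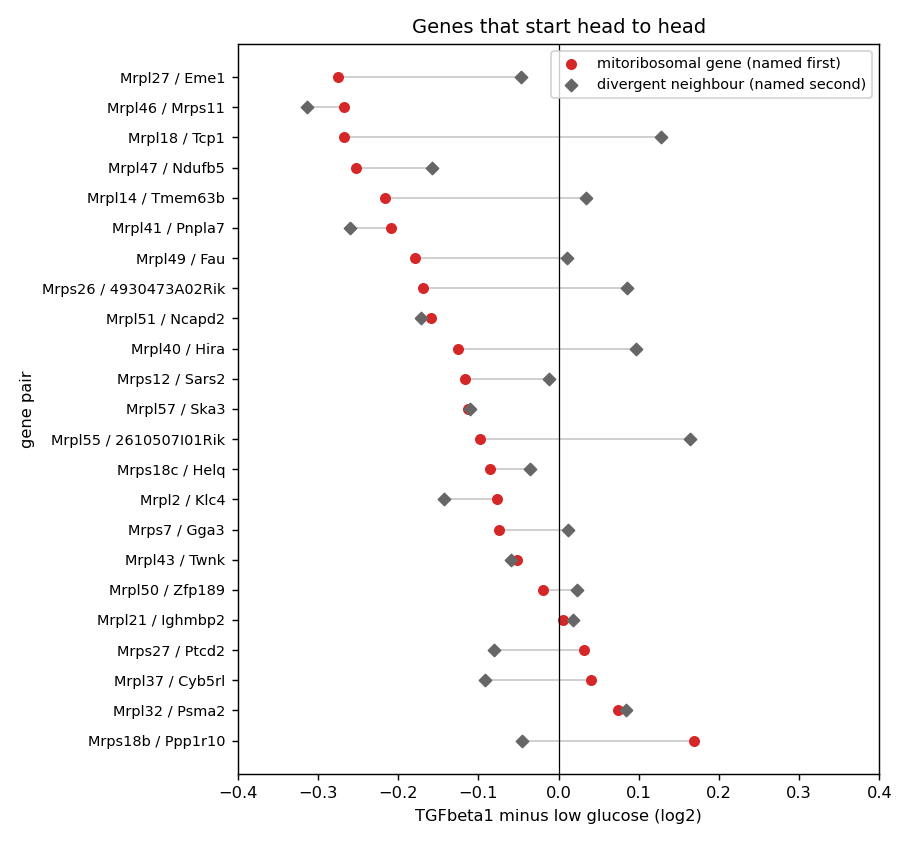
Differences (log2, TGF-beta1 minus low glucose) of mitoribosomal genes (red points) are drawn with those of the gene that starts head to head with them (grey diamonds), ordered by the mitoribosomal gene. In the row of Mrpl46 and Mrps11 both are mitoribosomal and lie at -0.27 and -0.31, while the other neighbours spread to both sides of 0.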

How the data were processed

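RNA of mesangial cells had been hybridised to 4 oligonucleotide arrays with 1 colour each, and the authors deposited 1 linear intensity per probe set and array. No source used here gives how probes were summarised or arrays scaled, and the number of arrays limits the precision. Groups came from the sample titles. Probe sets (45101, of which 64 were controls) were named from the platform annotation, and 34945 had 1 gene symbol.

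From the deposited intensities, log2(intensity + 46.88) was computed, with the 25th percentile of all intensities as pseudocount. The array medians differed by up to 0.2275, above a limit of 0.1, so arrays were quantile normalised. A filter kept the 27022 probe sets whose mean log2 value reached the 40th percentile, and each of 13565 genes was tested on its probe set of highest mean by a two-sided limma test (version 3.58.1 in R 4.3.3; lmFit, then eBayes with trend). P-values were adjusted over all genes after Benjamini and Hochberg, and matplotlib 3.10.9 drew the figures. The array pairs came from 18 hybridisation spike-in probe sets, whose mean absolute log2 difference was 0.0535 and 0.0888 within pairs and at least 0.972 between them. The titles of both arrays of pair 1 carry the same repeat tag and those of pair 2 do not share one. No source used here explains the tags. The pair was a fixed block in a second fit, which leaves each difference as it was. Both fits were tested on simulated data, with the spread taken from the blocked fit and varied between genes. The fit without the block recovered 0% of genes changed by 0.25, 0.5 or 1 in log2. With the block 10.4%, 89.6% and 100% of these were recovered, and 15 unchanged genes were called. There 67, 67 and 66 of 13565 genes were changed by these amounts, while the blocked fit of the data called 2502. The cut-off after Benjamini and Hochberg depends on how many genes change, so recovery at the cut-off of the data was not tested. A gene that did not pass is not shown to be unchanged.

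Members, lists, markers and tests were chosen with earlier results of these data known. Named members were the 6 most negative, the 6 most positive and the 3 of highest mean in each subunit, with the lowest and highest gene of each list of other genes and all tested mitoribosomal proteins with other symbols. Mrpl40, Mrpl53, Mrpl30, the genes starting head to head with members, the printed promoters, the motifs and the brightness range were chosen after values were seen. Bacterial counterparts followed the unified naming of ribosomal proteins, with Mrps36 left out. Promoter sequences are RefSeq's (GRCm38.p6). No genome coordinates come from the arrays. Alternatives were other pseudocounts, scalings, filters, probe sets and priors, and leaving out each array.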

Additional observations from a re-analysis of the deposited data

How the results depend on the processing

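With 2 arrays per group, every statement here rests on few measurements, and on the array pairs. Under other pseudocounts, a floor, other scalings, filters and probe set choices the members' median stayed between -0.10 and -0.074, and 7 to 9 members passed with the block, 8 in the reported fit, 0 without the block. With the array pair as a replicate block 8 members passed, against 0 without it, and given the finite prior estimated without it the blocked model passed 0. Replicate numbers as used here do not mark the array pairs. Without _x_at and _s_at probe sets 73 members were tested. Large minus small was 0.0023 with the deposited scaling and 0.0023 with centred arrays, and the cause was not tested. Leaving out each array in turn unbalances the pairs and was fitted without the block. That fit passed 0 members with all arrays, so these settings cannot tell whether the blocked calls depend on any array. The medians ranged from -0.20 to 0.058 for all members, -0.20 to 0.055 for the large subunit and -0.23 to 0.069 for the small subunit. Large minus small ranged from -0.088 to 0.035. Turned signs without calls were Chchd1 at 0.0039 with the deposited scaling and, with centred arrays, Mrps14 at -0.012, Mrps27 at -0.0004 and Uqcrq at -0.0080.

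Of the genes named by the rule, those whose sign turned when 1 array was left out are listed here, and members not named also turned. In the family they ranged from -0.58 to 0.048 (Mrpl18), -0.56 to 0.027 (Mrpl46), -0.34 to 0.025 (Mrpl51), -0.22 to 0.18 (Mrpl20), -0.060 to 0.11 (Mrpl22), -0.32 to 0.45 (Mrpl3), -0.21 to 0.36 (Mrpl32), -0.056 to 0.14 (Mrpl37), -0.40 to 0.58 (Mrpl39), -0.062 to 0.069 (Mrps14), -0.34 to 0.44 (Mrps31) and -0.14 to 0.22 (Mrps9). Outside it they ranged from -0.18 to 0.17 (Chchd1), -0.092 to 0.055 (Dap3), -0.33 to 0.21 (Ptcd3), -0.22 to 0.45 (Fastkd2), -0.54 to 0.018 (Malsu1), -0.14 to 0.25 (Mtpap), -0.49 to 0.052 (Mtrf1l), -0.28 to 0.47 (Rars2), -0.49 to 0.0075 (Slirp), -0.21 to 0.31 (Tsfm) and -0.14 to 0.18 (Uqcrq).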
